A study of Homo sapiens with 6 samples.

Results

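The 10 genes described here encode the condensin subunits (SMC2, SMC4, NCAPD2, NCAPG, NCAPH, NCAPD3, NCAPG2 and NCAPH2), DNA topoisomerase II alpha (TOP2A) and the Ki-67 protein (MKI67). They were chosen by symbol among the 35615 gene symbols of the count table, and all 10 were among the 14543 genes abundant enough to be tested. The cells were K562, a human erythroleukaemia line driven by the BCR-ABL1 fusion kinase. By nucleofection 5 M cells received 500 pmol of a synthetic hsa-miR-92a-1-5p mimic (libraries miR92a 1, 2 and 3) or the same amount of a negative-control mimic (libraries scramble 1, 2 and 3). Every culture of both groups then had imatinib, an inhibitor of BCR-ABL1, added to 1 µM at 4 h, and RNA was taken 24 h after that. Since neither imatinib-free nor mimic-free cultures were analysed here, every difference below is a difference between mimics under imatinib in 1 cell line.

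Condensins are ring-shaped ATPases that extrude DNA loops and fold chromosomes for mitosis. Condensin I and condensin II share the SMC2 and SMC4 core but differ in their other subunits. Condensin II is in the nucleus through the cell cycle, while condensin I reaches the chromosomes after the nuclear envelope breaks down. TOP2A passes one DNA duplex through another, which untangles sister chromatids and lets condensin compact them. Ki-67 coats mitotic chromosomes, keeps them apart from each other and is the usual stain for proliferating cells. Transcripts of TOP2A, MKI67 and several condensin subunits are known to peak in G2 and mitosis. In bulk RNA a different share of cells in those phases and a different amount of RNA per cell cannot be told apart.

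The miR-92a-1 hairpin lies on the plus strand of human chromosome 13 and gives rise to the mimicked strand and to its usually more abundant partner, miR-92a-3p. Both mature sequences are given from RefSeq (GRCh38.p14) with the seed, bases 2 to 8, in capitals, because matches to the seeds are counted further on. The mimicked strand lies at chr13:91351324-91351346 and its partner at chr13:91351361-91351382. The 2 strands share no seed.
hsa-miR-92a-1-5p: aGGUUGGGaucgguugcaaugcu
hsa-miR-92a-3p: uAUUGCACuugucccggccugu

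Library totals were 0.704, 26.0 and 25.6 M counts for miR92a 1, 2 and 3 and 25.4, 25.4 and 24.8 M for scramble 1, 2 and 3. The shallow library, miR92a 1, therefore gives wide counting error: it held 41 NCAPH2 counts, the fewest of any of the 10 genes, and 603 TOP2A counts, the most. Replicate 3 stood apart among the deep libraries of scramble. The deep libraries of miR92a, replicates 2 and 3, differed by a like amount, which alone cannot say which of them stood apart. The chi-square per gene was 43.8 for miR92a 3 with miR92a 2, and 48.4 and 43.0 for scramble 3 with scramble 1 and 2, but 4.83 between scramble 1 and 2. The shallow miR92a 1 gave 4.65 with miR92a 3 and 1.81 with miR92a 2, values that its few counts keep low. All 10 K562 erythroid marker genes were measured, with a summed level of 8937 to 17690 CPM (counts per 1 M counts of the library, scaled between libraries) in miR92a and 11029 to 17947 CPM in scramble. Of 10 markers of other cell types 6 passed the filter on low counts and MS4A1 was at 0 in every library, and the summed level of all 10, mostly EPCAM and KRT8, was 293 to 366 CPM in miR92a and 314 to 366 CPM in scramble. With the replicate number as a block, the erythroid marker HBZ passed the test and was lower in miR92a, averaging 2561 ± 1611 CPM in miR92a and 3213 ± 1464 CPM in scramble (SD, n = 3 each). Of the markers of other cells COL1A1 passed that fit, at 0.615 ± 0.556 CPM in miR92a and 2.83 ± 0.772 CPM in scramble. The part of these markers in the results below was not tested.

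All 10 genes had a higher mean level with the miR-92a-1-5p mimic than with the control mimic. The members took 0.294%, 0.261% and 0.270% of all counts in miR92a 1, 2 and 3 and 0.220%, 0.211% and 0.191% in scramble 1, 2 and 3. The median log2 fold change (miR92a over scramble) of the 10 genes was 0.34, against -0.01 over all tested genes. In edgeR's quasi-likelihood fit on group alone, 0 of the 10 passed an adjusted p of 0.05, where 0.433% of all tested genes passed as higher and 0.976% as lower. In that fit 9 of the 10 had an unadjusted p under 0.05 in the higher direction, against 6.0% of all tested genes, and 10 of 10 a positive log2 fold change, against 48.3%. The 10 genes were measured in the same 6 libraries and are not replicates of each other.

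The replicate numbers pair the libraries by the criterion in the methods, and the fit with the number as a block changed the calls. With the block 8 of the 10 rose (all but SMC4 and NCAPH2) and 0 fell, where 4.57% of all tested genes rose and 6.70% fell. Without the block, DESeq2 called 3 of the 10 higher (MKI67, NCAPD2 and NCAPG), where it called 0.970% of tested genes. Limma-voom without the block called 0 of the 10, where it called 0.639% of tested genes higher. With the block and 1 pair left out, 5 members were called higher without pair 1, against 3.29% of tested genes. Without pair 2 the count was 4, against 1.95% of tested genes, and without pair 3 it was 7, against 3.81%. NCAPD2, NCAPG, TOP2A and MKI67 were called higher in each of these 3 fits and in the blocked fits of edgeR, DESeq2 and limma-voom on all 6 libraries. Each blocked fit with 1 pair left out has 1 residual degree of freedom. Its p-values therefore rest largely on the spread estimated over other genes.

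The levels themselves separated the groups for 9 of the 10 genes: the lowest miR92a library was above the highest scramble library, as for 9.73% of all tested genes. NCAPH2 was the exception. In the same-numbered pairs each of the 10 genes was higher in miR92a in all 3 pairs, which held for 19.9% of tested genes.

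**Figure D1:**
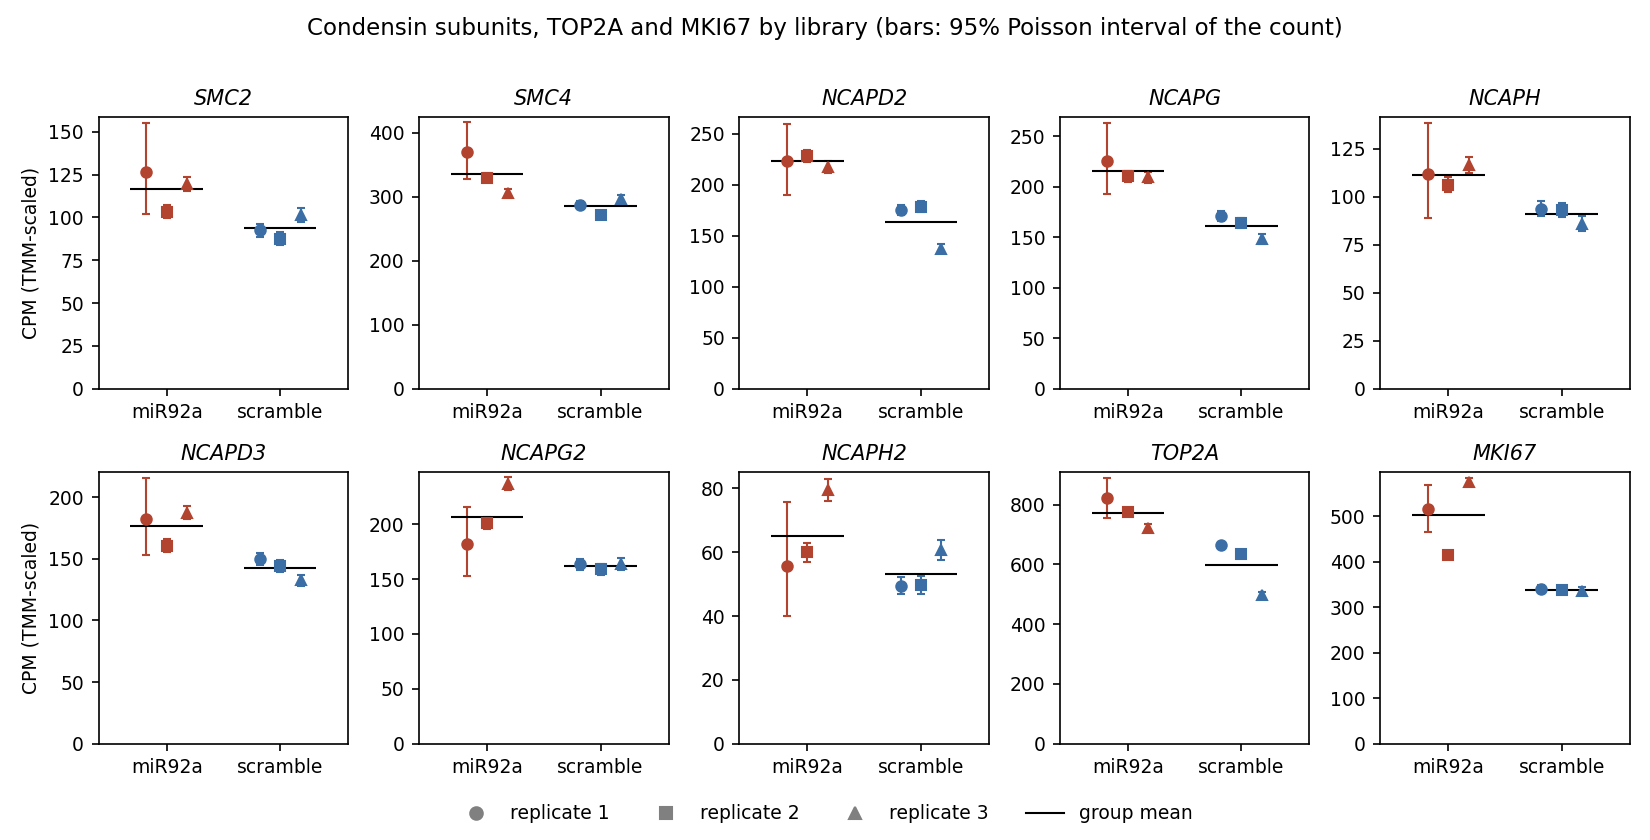
Level of each of the 10 genes in CPM on a linear axis from 0, in the 3 miR92a libraries (left) and the 3 scramble libraries (right), with replicates told apart by marker shape, a horizontal line at the group mean and vertical bars for the exact Poisson 95% interval of each count. The miR92a points lie above the scramble points for every gene but NCAPH2, where scramble 3 lies at 60.7 CPM, above miR92a 1 and 2.

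The shared core, SMC2 and SMC4, holds the ATPase heads of both condensins. SMC2 (ENSG00000136824, chr9:104094260-104141417, plus strand, GRCh38) had 127, 103 and 119 CPM in miR92a 1, 2 and 3 and 92.5, 87.6 and 102 CPM in scramble 1, 2 and 3. The groups did not overlap, but miR92a 2 and scramble 3 were close. The fitted log2 fold change of SMC2 was 0.29 ± 0.11 (SE; adjusted p = 0.289, edgeR) on group alone and 0.28 ± 0.09 (adjusted p = 0.0419) with the block. The blocked call of SMC2 was lost without pair 1 (adjusted p = 0.164, edgeR) and without pair 2 (0.255), and in the blocked DESeq2 (0.0601) and limma-voom (0.0665) fits, and held without pair 3 (0.00999). SMC4 (ENSG00000113810, chr3:160399274-160434962, plus strand), the partner ATPase, had 370, 330 and 305 CPM in miR92a 1, 2 and 3 and 287, 272 and 296 CPM in scramble 1, 2 and 3. The groups came closest in replicate 3, where the pair differed by 0.04 on the log2 CPM scale. It did not pass either edgeR fit: its log2 fold change was 0.22 ± 0.09 on group alone (adjusted p = 0.357) and 0.22 ± 0.08 with the block (adjusted p = 0.0977). With the block its log2 fold change was 0.17 ± 0.10 (adjusted p = 0.353, edgeR) without pair 1, 0.18 ± 0.13 (adjusted p = 0.573) without pair 2 and 0.31 ± 0.07 (adjusted p = 0.000315) without pair 3, so it passed in 1 of the 3.

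The condensin I subunits were NCAPD2 and NCAPG, HEAT-repeat proteins that bind DNA and regulate the ring, and NCAPH, the kleisin that closes it. NCAPD2 (ENSG00000010292, chr12:6493356-6531955, plus strand) had 223, 228 and 218 CPM in miR92a 1, 2 and 3 and 176, 179 and 138 CPM in scramble 1, 2 and 3. The miR92a libraries lay close together and scramble 3 was well below its group. The log2 fold change of NCAPD2 was 0.44 ± 0.11 (adjusted p = 0.127, edgeR) on group alone and 0.47 ± 0.09 (adjusted p = 0.00112) with the block. Without scramble 3 it was 0.33 ± 0.08 (adjusted p = 0.118, group alone).

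NCAPG (ENSG00000109805, chr4:17810902-17844862, plus strand) had 226, 210 and 209 CPM in miR92a 1, 2 and 3 and 171, 164 and 149 CPM in scramble 1, 2 and 3. No library of either group came near the other group. For NCAPG the log2 fold change was 0.41 ± 0.09 (adjusted p = 0.0789, edgeR) on group alone and 0.42 ± 0.08 (adjusted p = 0.00153) with the block, and its 3 pair differences were the most alike of the 10 genes, spanning 0.13 on the log2 CPM scale. NCAPH (ENSG00000121152, chr2:96335787-96373845, plus strand) had 112, 106 and 116 CPM in miR92a 1, 2 and 3 and 93.6, 93.1 and 85.9 CPM in scramble 1, 2 and 3. The groups did not overlap, though the counting interval of miR92a 1 alone, 88.7 to 138 CPM, reached into the scramble range. For NCAPH the log2 fold change was 0.29 ± 0.09 (adjusted p = 0.195, edgeR) on group alone and 0.30 ± 0.09 (adjusted p = 0.0341) with the block. The blocked call was lost without pair 1 (adjusted p = 0.0845, edgeR), pair 2 (0.155) or pair 3 (0.125, at a log2 fold change of 0.20), and in DESeq2 (0.0627) and limma-voom (0.0527) with the block.

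The condensin II subunits were the HEAT-repeat proteins NCAPD3 and NCAPG2 and the kleisin NCAPH2. NCAPD3 (ENSG00000151503, chr11:134150119-134225454, minus strand) had 182, 161 and 187 CPM in miR92a 1, 2 and 3 and 150, 144 and 133 CPM in scramble 1, 2 and 3. Replicate 3 was the highest miR92a library and the lowest scramble library, so that pair differed most. For NCAPD3 the log2 fold change was 0.31 ± 0.10 (adjusted p = 0.21, edgeR) on group alone and 0.32 ± 0.09 (adjusted p = 0.0223) with the block. The blocked call was lost without pair 1 (adjusted p = 0.0782, edgeR), pair 2 (0.0625) or pair 3 (0.115), and in limma-voom with the block (0.0519), and held in DESeq2 with the block (0.0386). Without pair 3 the blocked log2 fold change was 0.19, and on replicates 1 and 2 alone it was 0.15. NCAPG2 (ENSG00000146918, chr7:158631311-158704829, minus strand) had 182, 201 and 237 CPM in miR92a 1, 2 and 3 and 164, 159 and 164 CPM in scramble 1, 2 and 3. The scramble libraries were nearly equal and the spread was on the miR92a side, with miR92a 3 highest. Its log2 fold change was 0.37 ± 0.10 (adjusted p = 0.164, edgeR) on group alone and 0.37 ± 0.09 (adjusted p = 0.00735) with the block, a call that was lost without pair 2 (adjusted p = 0.093).

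NCAPH2 (ENSG00000025770, chr22:50508216-50523472, plus strand) had 55.8, 60.0 and 79.4 CPM in miR92a 1, 2 and 3 and 49.5, 49.7 and 60.7 CPM in scramble 1, 2 and 3. Replicate 3 was the highest library of both groups, and scramble 3 lay above miR92a 1 and 2. Counting error in miR92a 1 alone allows 40.0 to 75.7 CPM (exact Poisson 95% interval). Its log2 fold change was 0.33 ± 0.15 (adjusted p = 0.403, edgeR) on group alone and 0.30 ± 0.10 (adjusted p = 0.056) with the block, and 0.14 ± 0.14 (adjusted p = 0.787, group alone) without miR92a 3.

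TOP2A (ENSG00000131747, chr17:40388516-40417950, minus strand), the topoisomerase that untangles sister chromatids, had 820, 773 and 723 CPM in miR92a 1, 2 and 3 and 665, 634 and 499 CPM in scramble 1, 2 and 3. Replicate 3 was lowest in both groups. The log2 fold change of TOP2A was 0.36 ± 0.12 (adjusted p = 0.229, edgeR) on group alone and 0.38 ± 0.08 (adjusted p = 0.00256) with the block. Without scramble 3 it was 0.24 ± 0.09 (adjusted p = 0.267, group alone).

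MKI67 (ENSG00000148773, chr10:128096659-128126385, minus strand), the proliferation antigen, had the largest fitted log2 fold change of the 10 genes. It had 516, 416 and 575 CPM in miR92a 1, 2 and 3 and 341, 337 and 337 CPM in scramble 1, 2 and 3. The scramble libraries were alike, with a coefficient of variation of 0.693%, while the miR92a libraries varied by 16.0%. Its log2 fold change was 0.57 ± 0.12 (adjusted p = 0.0699, edgeR) on group alone and 0.55 ± 0.09 (adjusted p = 0.000233) with the block. Leaving out miR92a 2 brought it past the threshold on group alone, with a log2 fold change of 0.69 ± 0.10 (adjusted p = 0.0403), and it was the only member called in any of the 6 fits on group alone that left out 1 library.

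**Figure D2:**
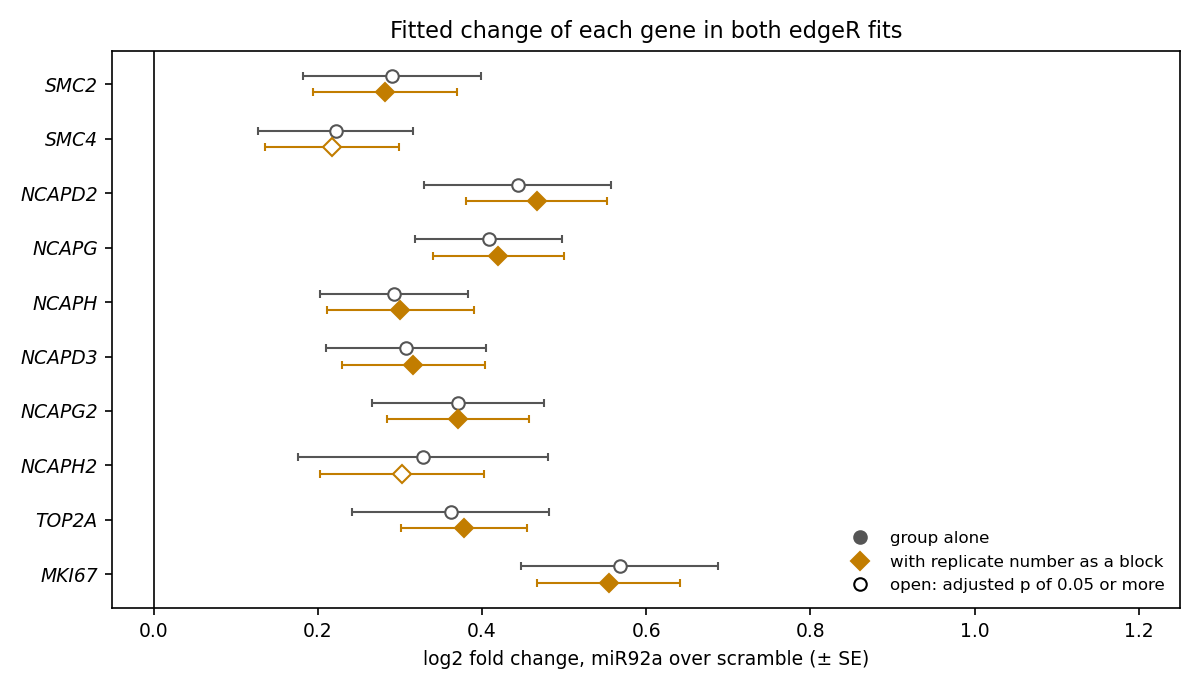
Fitted log2 fold change, miR92a over scramble, of each of the 10 genes with its SE, in the edgeR fit on group alone (circles) and with the replicate number as a block (diamonds), open symbols marking an adjusted p of 0.05 or more. The estimates of the fits lie close together, from 0.22 for SMC4 to 0.57 for MKI67 on group alone, and the SE was smaller with the block.

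The 3 same-numbered pairs did not contribute alike. On the log2 CPM scale the median difference of the 10 genes (miR92a minus scramble) was 0.32 in pair 1, 0.28 in pair 2 and 0.50 in pair 3, where the medians over all tested genes were -0.07, 0.00 and -0.01. The 10 differences lay between 0.16 and 0.60 in pair 1 and between 0.16 and 0.36 in pair 2. They lay between 0.04 and 0.77 in pair 3, the widest spread of the 3. In pair 3 the lowest was SMC4 and the highest MKI67. Scramble 3 was the lowest scramble library for 6 genes: NCAPD2, NCAPG, NCAPH, NCAPD3, TOP2A and MKI67. For MKI67, however, scramble 2 and 3 were level at 337 CPM, and miR92a 3 was the highest miR92a library at 575 CPM.

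**Figure D3:**
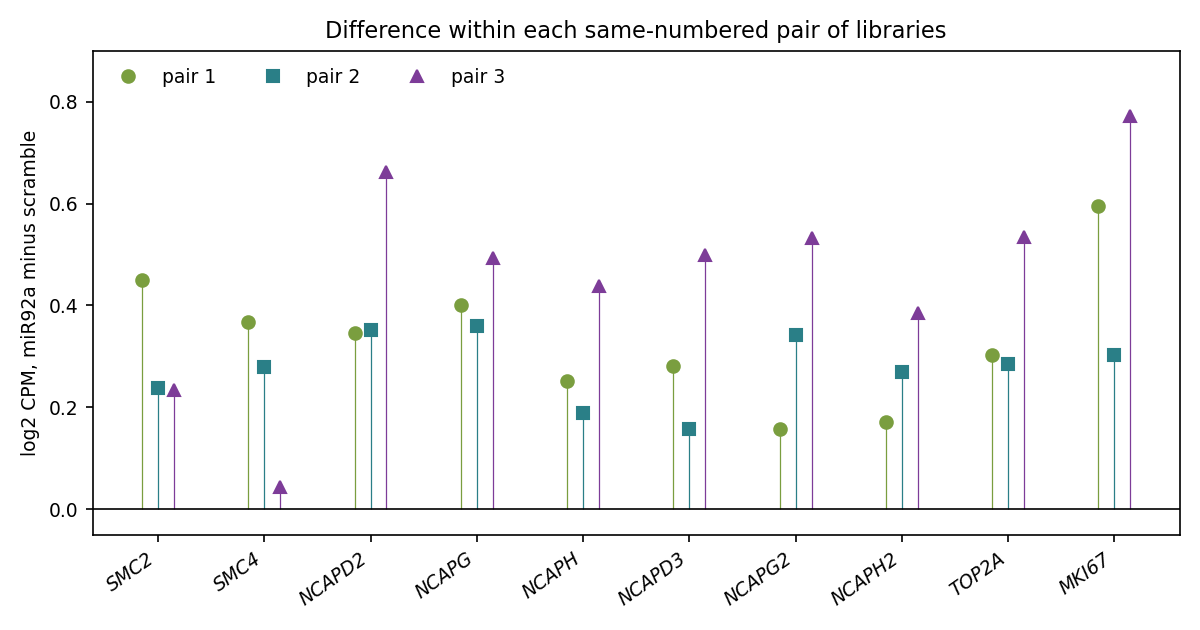
Difference in log2 CPM, miR92a minus scramble, of each of the 10 genes in each same-numbered pair of libraries, drawn as a stem from 0, which marks no difference. Every point is above 0, and in pair 3 the points reach from 0.04 for SMC4 to 0.77 for MKI67.

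Levels of different genes were compared per kilobase of the longest annotated transcript. TOP2A was the most abundant of the 10 on that scale, at 134 ± 8.47 CPM per kb in miR92a and 104 ± 15.4 in scramble. SMC4 came next, at 61.2 ± 5.97 CPM per kb in miR92a and 52.1 ± 2.28 in scramble, and NCAPG followed, at 46.2 ± 1.99 in miR92a and 34.6 ± 2.47 in scramble. SMC2 was lowest, at 19.4 ± 1.99 CPM per kb in miR92a and 15.7 ± 1.18 in scramble (SD, n = 3 each). The other 6 genes lay between 31.3 and 40.2 CPM per kb in miR92a and between 25.7 and 30.9 in scramble. Of these NCAPD2, MKI67, NCAPG2 and NCAPH lay close together in miR92a, from 37.7 to 40.2. MKI67 has a long transcript, so its 502 ± 80.4 CPM in miR92a and 338 ± 2.34 CPM in scramble came to 39.6 ± 6.34 CPM per kb in miR92a and 26.7 ± 0.185 in scramble. The order rests on the choice of transcript: with the median length of the coding transcripts, many of them annotated fragments, TOP2A came to 1334 CPM per kb in miR92a and 1035 in scramble and SMC4 to 401 in miR92a and 341 in scramble. On that length NCAPD3 stood next, at 229 CPM per kb in miR92a and 184 in scramble, above NCAPG at 78.7 in miR92a and 59.0 in scramble.

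The balance of the condensins was compared within each library, where scaling between libraries cancels. Transcripts of the 3 condensin I subunits made up 57.1%, 56.3% and 51.9% of the counts of the 6 subunits in miR92a 1, 2 and 3 and 54.8%, 55.2% and 51.0% in scramble 1, 2 and 3. The exact binomial 95% interval was 53.4% to 60.8% in miR92a 1 and covered counting error only. The share was lowest in replicate 3 of both groups, and the group means, 55.1% ± 2.82 in miR92a and 53.7% ± 2.32 in scramble (SD, n = 3 each), differed by less than the spread within either group. Within the same-numbered pairs the share was higher in miR92a in 3 of 3, as was the ratio per kilobase. Per kilobase the ratio of condensin I to condensin II subunits was 1.22 ± 0.148 in miR92a and 1.16 ± 0.121 in scramble. The ratio of SMC4 to SMC2 counts was 2.92, 3.19 and 2.56 in miR92a 1, 2 and 3 and 3.10, 3.10 and 2.92 in scramble 1, 2 and 3. The ratio of TOP2A to MKI67 counts was 1.59, 1.86 and 1.26 in miR92a 1, 2 and 3 and 1.95, 1.88 and 1.48 in scramble 1, 2 and 3, lower in miR92a in each pair, while the ranges of the groups overlapped.

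**Figure D4:**
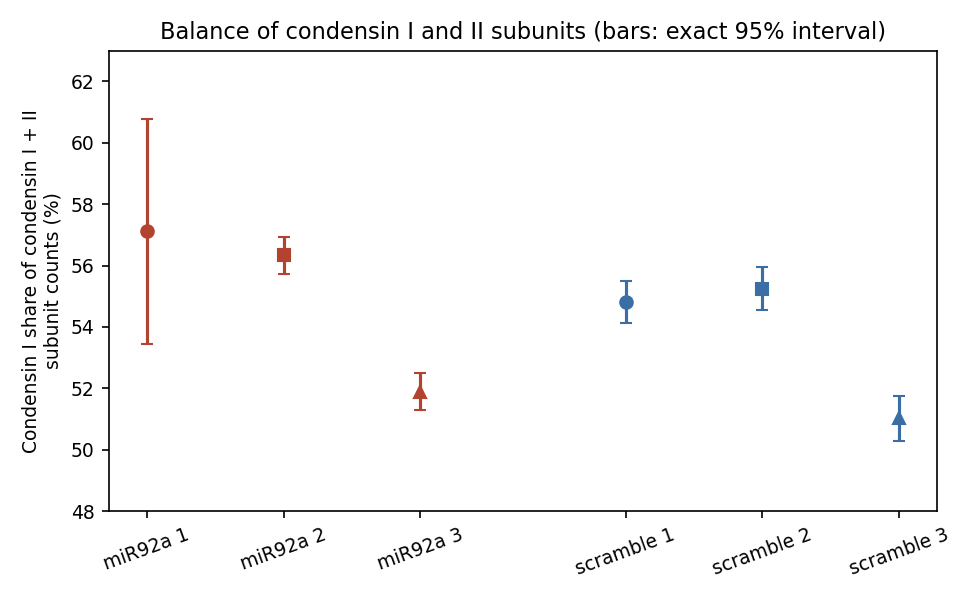
Share of condensin I subunit counts among the counts of the 6 condensin I and II subunits, in percent, in the miR92a libraries (left) and the scramble libraries (right), with the exact binomial 95% interval of each library. Replicate 3 is lowest in both groups, at 51.9% in miR92a 3 and 51.0% in scramble 3, and the groups overlap.

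Seed matches of the mimic were counted in the 3′ untranslated regions of the 10 genes. A match here is a 7mer (CCCAACC, or CCAACCA with an A across from the first base of the miRNA) or the 8mer CCCAACCA on the sense strand of the reference transcript with the longest region. MKI67 held 1 match in its 3′ UTR and the other 9 genes held none, and 16.9% of 12888 tested genes with a 3′ UTR held at least 1. The count for the 10 genes was thus near the share over all tested genes. Their 3′ UTRs ran from 393 bases (NCAPH2) to 2531 bases (MKI67), where the median over those tested genes was 1327 bases. The MKI67 match, shown because it is the only one, lies at chr10:128097009-128097015 on the minus strand (GRCh38), at base 2175 of a UTR of 2531 bases in the last exon, with the match in capitals.
MKI67 3′ UTR: ggcaggcacctCCAACCAccacacactccc

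In coding sequence 4 of the 10 genes held 9 matches, where 21.9% of 12948 tested genes held at least 1. These shares are not of like lengths. The coding sequences of the 10 ran from 1821 bases (NCAPH2) to 9771 bases (MKI67), all above the median of 1428 bases over those tested genes. NCAPH, SMC2 and TOP2A had 1 each and MKI67 had 6. The MKI67 coding matches comprised the 8mer in exon 8, 1 match in exon 11 and 4 in exon 13, the 6845-base exon that encodes the Ki-67 repeats. The 4 matches of exon 13 begin at bases 4382, 6563, 8018 and 8735 of the 9771-base coding sequence. Their 30-base windows, shown to let the repeats be compared, differed from each other at 1 to 5 positions, and capitals mark the match. They lie on the minus strand at chr10:128107452-128107458, chr10:128105271-128105277, chr10:128103816-128103822 and chr10:128103099-128103105, and the 8mer at chr10:128113480-128113487.
MKI67 exon 8: aggggagaagcCCCAACCAaaagaaagtct
MKI67 exon 13, base 4382: taaggaaaaggCCCAACCcctagaagacct
MKI67 exon 13, base 6563: taagggaaaagCCCAACCcctagaagactt
MKI67 exon 13, base 8018: taaggaaaaggCCCAACCcctggaagacct
MKI67 exon 13, base 8735: taaggaaaaggCCCAACCcctggaagatct

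MKI67, the gene with the longest coding sequence and the most matches to the mimic, had the largest positive log2 fold change of the 10. A link between the matches and the change was not tested. For the partner strand miR-92a-3p, with the 7mers GTGCAAT and TGCAATA and the 8mer GTGCAATA, NCAPG held 1 match in its 3′ UTR (20.1% of tested genes held at least 1) and SMC4 held 1 in coding sequence (10.3%).

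The promoters were searched for the elements known from G2 and mitosis genes: the CHR (TTTGAA, or TTCAAA on the other strand), which the DREAM and MYB-MuvB complexes bind, and the CCAAT box (CCAAT, or ATTGG on the other strand), which NF-Y binds. RefSeq windows (GRCh38.p14) of 250 bases before to 50 bases after the start matched 9 of the 10 genes, all but NCAPH2, with 12 windows in all. A CHR sequence was present in 8 of the 9 genes, all but NCAPH, against 13.8% of the 10265 tested genes with a window. By window it was 8 of 12, against 10.7% of 14969 windows of tested genes. A CCAAT box was present in 5 of the 9, against 43.2% of tested genes. NCAPD2, NCAPD3, TOP2A and MKI67 held both in the same window, against 5.85% of tested genes.

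The windows of TOP2A, MKI67 and NCAPD2 are shown because each holds several of these elements, which are in capitals, and because these genes were called in every blocked fit named above. TOP2A (chr17:40417847-40418146, minus strand) held 2 CHR sequences and 4 CCAAT boxes, all before the start. MKI67 (chr10:128126374-128126673, minus strand) held 2 of each, within 98 bases before the start, and its second CHR shares a base with a CCAAT box. NCAPD2 (chr12:6493852-6494151, plus strand) held 1 CHR and 4 CCAAT boxes.
TOP2A promoter: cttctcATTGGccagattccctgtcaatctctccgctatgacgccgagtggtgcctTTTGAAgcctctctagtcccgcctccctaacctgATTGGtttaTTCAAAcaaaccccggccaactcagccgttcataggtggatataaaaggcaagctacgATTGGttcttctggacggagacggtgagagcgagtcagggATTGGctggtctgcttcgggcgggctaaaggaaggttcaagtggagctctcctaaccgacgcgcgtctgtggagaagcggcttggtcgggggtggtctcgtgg
MKI67 promoter: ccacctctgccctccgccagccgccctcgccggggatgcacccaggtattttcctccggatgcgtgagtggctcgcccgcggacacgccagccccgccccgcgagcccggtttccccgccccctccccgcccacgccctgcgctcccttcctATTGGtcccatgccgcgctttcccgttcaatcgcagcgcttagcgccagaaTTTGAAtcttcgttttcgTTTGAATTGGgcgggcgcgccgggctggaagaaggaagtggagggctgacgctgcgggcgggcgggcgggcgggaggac
NCAPD2 promoter: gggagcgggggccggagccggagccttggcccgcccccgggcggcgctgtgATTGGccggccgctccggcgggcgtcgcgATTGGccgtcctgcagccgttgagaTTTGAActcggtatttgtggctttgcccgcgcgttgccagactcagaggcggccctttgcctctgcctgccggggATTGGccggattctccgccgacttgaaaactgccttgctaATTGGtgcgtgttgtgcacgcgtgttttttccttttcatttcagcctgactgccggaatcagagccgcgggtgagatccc

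A match is a description of the letters and not of binding. Among the 1406 other tested genes with a CHR in a window the median log2 fold change on group alone was -0.03, against -0.01 over all genes with a window. On group alone 0.284% of those 1406 were called higher, against 0.439% of all genes with a window. With the block 7.18% were higher, against 4.88% of all genes with a window, and 7.54% were lower, against 7.43%. Of the 597 other genes with both elements in the same window 10.9% were higher and 7.37% lower with the block, and their median log2 fold change was 0.00 on group alone.

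**Figure D5:**
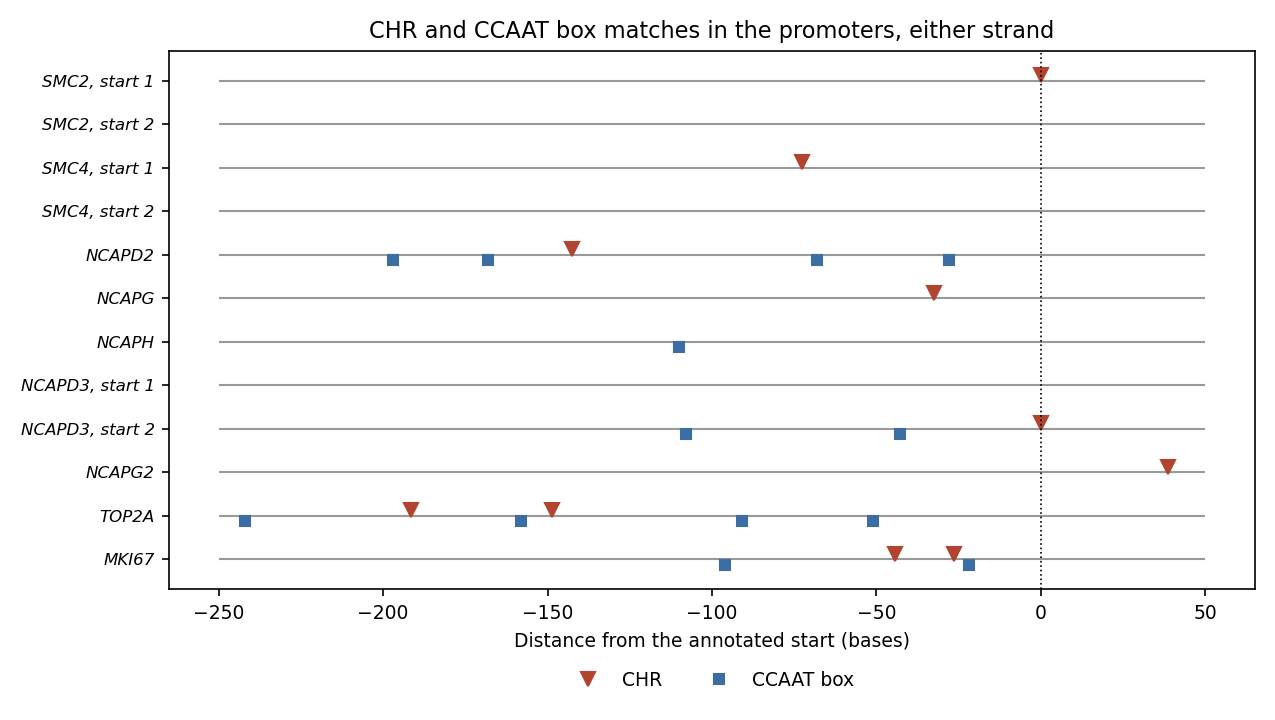
Positions of the CHR and CCAAT box sequences in each RefSeq promoter window of the 9 genes with an entry, in bases from the transcription start. The CHR of SMC2 and that of NCAPD3 span the start, that of NCAPG2 lies 36 to 41 bases after it, and the others lie before it.

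Other complexes of chromosome structure were counted for comparison, from 5 lists. In edgeR on group alone 0.433% of all tested genes rose, 0.976% fell and 6.0% were higher at an unadjusted p under 0.05. DESeq2 called 0.970% of them higher and limma-voom 0.639%. Of the 14543 tested genes DESeq2 called 247 lower and limma-voom 182. The share lower at an unadjusted p under 0.05 is not given, so the lower counts at that threshold below have no comparison. With the block in edgeR 4.57% rose and 6.70% fell. Of 18 genes of cohesin and its regulators, 1 rose and 1 fell on group alone. SMC1A, the cohesin counterpart of the condensin core, fell: it averaged 198 ± 17.1 CPM in miR92a and 349 ± 8.27 CPM in scramble (SD, n = 3 each), a log2 fold change of -0.82 ± 0.09 (adjusted p = 0.00602, edgeR). SMC1A held 3 matches to the mimic in its 3′ UTR of 5954 bases, where the median 3′ UTR of tested genes is 1327 bases. ESPL1, the separase that cleaves cohesin at anaphase, rose: it averaged 200.4 ± 17.2 CPM in miR92a and 134 ± 1.38 CPM in scramble, a log2 fold change of 0.58 ± 0.09 (adjusted p = 0.0231), and lost the call when miR92a 1 (adjusted p = 0.0932), miR92a 3 (0.0515), scramble 1 (0.128) or scramble 2 (0.127) was left out. With the block STAG2, a cohesin subunit, and PTTG1, the securin that inhibits separase, also rose, with log2 fold changes of 0.46 and 0.47. ESPL1, STAG2 and PTTG1 held 0 matches to the mimic in their 3′ UTRs of 169, 2059 and 63 bases. The median log2 fold change of the list was 0.10 on group alone.

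Of 15 regulators and chromosome partners of condensin 0 passed on group alone in edgeR (7 higher and 1 lower at an unadjusted p under 0.05; DESeq2 called 2 higher and 1 lower, limma-voom 1 higher), and the median log2 fold change was 0.21. With the block 7 rose, against 4.57% of all tested genes, and 1 fell, against 6.70%. Those that rose were KIF4A, CDCA2, AURKB, CCNB1, PLK1, NCL and CDK1. KIF4A, a kinesin that binds condensin on chromosome arms, averaged 141 ± 6.15 CPM in miR92a and 93.7 ± 12.6 CPM in scramble, with a blocked log2 fold change of 0.63 (adjusted p = 0.000113, edgeR). CDCA2, which targets a phosphatase to chromatin at anaphase, had a blocked log2 fold change of 0.58 (adjusted p = 0.00096), AURKB, the kinase of the chromosomal passenger complex, of 0.57 (adjusted p = 0.00509), and CCNB1, the cyclin of CDK1, of 0.50 (adjusted p = 0.00174). CSNK2A1, a subunit of casein kinase 2, which phosphorylates condensin in interphase, fell with the block: it averaged 65.0 ± 11.6 CPM in miR92a and 111 ± 14.4 CPM in scramble, a log2 fold change of -0.65 (adjusted p = 0.000268), and held 1 match to the mimic in its 3′ UTR of 11463 bases. The 7 genes that rose held 0 matches in their 3′ UTRs, which ran from 138 bases (AURKB) to 1660 bases (NCL).

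The remaining lists are set against the same shares of all tested genes, with the block 4.57% higher and 6.70% lower. On group alone 6.0% were higher at an unadjusted p under 0.05, and DESeq2 called 247 of 14543 lower. Of 8 tested genes of the SMC5/6 complex, which acts in DNA repair, 0 passed on group alone in edgeR (1 higher and 2 lower at an unadjusted p under 0.05; DESeq2 called 1 lower, limma-voom 0), with a median log2 fold change of 0.09, and SMC6 fell with the block, at 135 ± 5.94 CPM in miR92a and 182 ± 24.8 CPM in scramble, a log2 fold change of -0.45 (adjusted p = 0.0018), with 1 match in its 3′ UTR of 1687 bases. Of the 5 other DNA topoisomerases 0 passed in either edgeR fit, in DESeq2 or in limma-voom, and 0 had an unadjusted p under 0.05. TOP2B, the paralogue of TOP2A that is not tied to proliferation, averaged 323 ± 26.7 CPM in miR92a and 315 ± 2.11 CPM in scramble, with a log2 fold change of 0.04 ± 0.09 (adjusted p = 0.915), and TOP1 averaged 248 ± 11.9 CPM in miR92a and 275 ± 16.6 CPM in scramble. The difference between the changes of TOP2A and TOP2B was not tested. Of 14 regulators of cell cycle promoters (DREAM, MYB-MuvB and NF-Y subunits) 0 passed on group alone in edgeR (1 higher and 1 lower at an unadjusted p under 0.05; DESeq2 and limma-voom called 0), with a median log2 fold change of 0.01. With the block TFDP1, the partner of E2F factors, rose, with a log2 fold change of 0.28 (adjusted p = 0.0353, edgeR). It held 0 matches to the mimic in its 3′ UTR of 1203 bases. RBL2, the p130 pocket protein of DREAM, fell with the block, at 89.0 ± 3.67 CPM in miR92a and 113 ± 9.01 CPM in scramble. Its log2 fold change was -0.35 (adjusted p = 0.0181, edgeR), with 0 matches in its 3′ UTR of 1349 bases. In coding sequence SMC1A, ESPL1, PLK1, KIF4A and RBL2 held 1 match each, and the other list genes called in either edgeR fit held 0. Over all tested genes with a 3′ UTR, 16.9% held a match there, and 21.9% of those with a coding sequence held one in it. The coding sequences of the list genes with a coding match ran from 1812 bases (PLK1) to 6363 bases (ESPL1). All were above the median of 1428 bases over tested genes. Whether the matches bear on these changes was not tested.

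The genes whose centred log2 profile over the 6 libraries was nearest to the mean profile of the 10 were sought among the 7774 other tested genes with a mean of at least 20 CPM. They were WEE1, the kinase that restrains CDK1, at a root mean square difference of 0.0308, TARS, a threonyl-tRNA synthetase, at 0.0311, WDR45B at 0.0341, ZNF622 at 0.0346 and DUT, the dUTPase, at 0.0347. The median over the other genes was 0.241. The 10 genes themselves lay between 0.0384 (NCAPH) and 0.183 (NCAPH2) from their mean. WEE1 averaged 184 ± 9.77 CPM in miR92a and 147 ± 5.88 CPM in scramble, with a log2 fold change of 0.32 (adjusted p = 0.135, edgeR) on group alone and 0.33 (adjusted p = 0.0112) with the block. These nearest genes were picked by their profile over the same 6 libraries, so a change like that of the 10 follows from the choice.

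Some reads of 4 of the 10 genes could come from a neighbour, since the strand of the libraries was not given in the sources used here. Exons on the opposite strand cover 33.1% of the exon bases of NCAPG (LCORL), 18.5% and 7.18% of SMC4 (TRIM59 and IFT80), 7.49% of NCAPD2 (MRPL51) and 5.10% and 2.73% of NCAPD3 (JAM3 and VPS26B). LCORL averaged 21.2 ± 4.40 CPM in miR92a and 25.3 ± 2.31 CPM in scramble, with summed counts 13.5% of those of NCAPG. MRPL51 averaged 72.6 ± 10.4 CPM in miR92a and 60.6 ± 3.12 CPM in scramble, with a log2 fold change of 0.28 (adjusted p = 0.36, edgeR, group alone) and summed counts 35.3% of those of NCAPD2. VPS26B averaged 96.6 ± 10.1 CPM in miR92a and 86.6 ± 4.03 CPM in scramble, with summed counts 57.5% of those of NCAPD3. TRIM59 and IFT80 had 13.9% and 11.6% of the counts of SMC4, and JAM3 had 1.49% of those of NCAPD3. Of 5 annotated pseudogenes of the members, SMC4P1, NCAPD2P1, NCAPGP1 and NCAPGP2 had 0 counts in every library and MKI67P1 had 2 in all.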

How the data were processed

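Paired reads of total RNA from 6 K562 cultures, labelled as 3 biological replicates per mimic, were quantified by the authors with kallisto against GRCh38, per the labels' protocols and the submitters' processing notes. The sources used here do not give the kallisto version, the annotation, the strand setting or how transcripts were summed to genes. The authors deposited these values as estimated counts per gene symbol, in whole numbers with no scaling between libraries, and every column entered. The labels do not say how separate the cultures were, so p-values measure the spread between these libraries.

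Counts were filtered with filterByExpr (14543 of 35615 symbols kept), scaled by TMM and tested across all kept genes on group alone with edgeR 4.0.16 (quasi-likelihood F-test, Benjamini-Hochberg adjustment, threshold 0.05) in R 4.3.3. Standard errors are the absolute log2 fold change over the root of F. CPM (counts per 1 M) are TMM-scaled, and log2 CPM used a prior count of 2. Deviations from group means correlated within same-numbered pairs at 0.154, 0.160 and 0.420, each over 0.1, so a fit with this number as a block stands beside each call it changes. Differently numbered libraries came just under 0.1 for miR92a 1 with scramble 2 (0.09) and miR92a 2 with scramble 1 (0.0993). Those that joined replicate 3 to another number were negative. The criterion thus barely separates replicates 1 and 2. Over the abundant genes (mean of 1000 counts or more), however, scramble 1 was closer to miR92a 2 (0.517) than to its own number (0.370). DESeq2 1.42.0, limma-voom (limma 3.58.1), other scalings and filters, and libraries left out were the alternatives. The code was tested on simulated data. Transcripts, lengths and seed matches came from GENCODE v29, and miRNA and promoter sequences from RefSeq (GRCh38.p14), read with Python 3.11.15. Intervals cover counting error only.

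The members and lists were chosen with earlier results of these data known. All members are named; of each list, the genes past the threshold in either edgeR fit, up to 4 in each direction by size of change, or, where none passed, 2 with the highest mean CPM. PLK1, NCL and CDK1 are named beyond that rule to complete a count of calls. Some values are not reported here. A comparison of the proteins was not run.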

Additional observations from a re-analysis of the deposited data

How the results depend on the processing

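The direction of all 10 genes was the same in each of the 200 member fits other than the one on group alone, and 58 of these passed the threshold where that fit did not. Relative to group alone (0 of the 10 higher, 63 genes higher and 142 lower, and 1 list gene each way), DESeq2 called 3 of the 10, 141 and 247 genes and 4 and 3 list genes. Limma-voom, median-of-ratios scaling and a mean of at least 1 CPM called 2 list genes higher. No filter called 1 of the 10 and 2 list genes each way. The replicate block called 8 of the 10, 664 and 975 genes and 11 and 4 list genes, and changed no other call on the 10. Leaving out 1 library gave 0 to 1 of the 10, 14 to 53 genes higher, 56 to 148 lower, and 0 to 3 and 1 to 2 list genes. The block with 1 pair left out gave 4 to 7 of the 10, 285 to 554 genes higher (486 without pair 1), 549 to 866 lower (751 without pair 1), and 8 to 11 and 3 list genes. Replicates 1 and 2 alone gave 8 of the 10, 938 and 1296 genes, and 13 and 5 list genes.

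Chosen after seeing the data, DESeq2 with the block gave 6 of the 10, 434 and 655 genes and 9 and 4 list genes. Limma-voom with the block, added likewise, gave 6 of the 10, 568 and 800 genes and 9 and 4 list genes, and replicate 3 as a batch term 9 of the 10, 976 and 1262 genes and 14 and 5 list genes. The members with a match to the mimic numbered 1 in the 3′ UTR and 4 in coding sequence. The ratio of condensin I to II kept its value on plain counts (1.23 in miR92a and 1.16 in scramble), and the 5 nearest genes were the same with a minimum of 5 CPM. The causes were not tested. The depth of miR92a 1, 0.704 M counts, limits what that library can show, and a gene not called is not shown to be unchanged.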
